A study of Mus musculus with 18 samples.

Results

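The collagen genes of the mouse heart were taken as the protein-coding genes whose symbol is Col, a chain type number, the letter a and a chain number, such as Col1a1. The rule found 44 genes among the 54532 of the count table. By the kind of assembly that their products form, they fell into 11 fibrillar, 8 basement membrane, 10 network-forming and 9 fibril-associated collagens and 6 others. Of the 44, 40 passed the filter on low counts and were tested. Col9a1, Col19a1, Col6a4 and Col10a1 did not, with 2, 7, 33 and 55 counts over all 18 libraries. Some low members, such as Col11a1, Col2a1 and Col17a1, passed through the groups in which they were high, so the counts of called members below describe the tested genes alone.

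RNA was sequenced from the apex of hearts of mice labelled wild type in genotype, in 6 groups of 3 libraries. By the labels, each of 2 batches had its own controls and its own hearts labelled Lmna shRNA (L881 in the titles). In the deposited table the third LC control carries a number next to that of the third LA control and far from the other two LC controls; the labels do not say what these numbers stand for. The remaining group of batch LC is labelled Lmna shRNA plus Lamin C, and that of batch LA, Lmna shRNA plus Lamin A. The series asked what raising either lamin, delivered by adeno-associated virus (rAAV9), does in mice with a dilated cardiomyopathy produced by Lmna knockdown. The sources used here do not give what the controls received, the promoter of each vector, or the age, sex and strain of the mice. Each lamin was present in 1 batch only, so lamin and batch are told apart only through the control and shRNA-labelled hearts of each batch. Nothing in the labels says that the libraries of a group came from separate mice, so p-values measure the spread between these libraries, which may be technical.

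Collagens are secreted proteins whose chains wind into a rope-like helix. Types I and III, assembled from the products of Col1a1, Col1a2 and Col3a1, form the load-bearing fibrils of the heart interstitium and are laid down in excess in fibrosis, mainly by activated fibroblasts. Type IV chains form the meshwork of the basement membrane around every cardiomyocyte and capillary. Type VI and type VIII chains build microfilaments and sheets, and the fibril-associated collagens decorate fibril surfaces without forming fibrils of their own.

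Lmna, the gene targeted in the labels, was read first. In CPM, its count scaled to library size with TMM factors, it stood at 122, 128 and 119.8 in the LC controls and at 137, 134 and 115 in the LC hearts labelled Lmna shRNA. In edgeR's quasi-likelihood test Lmna differed between those groups by 0.06 ± 0.08 (SE) on the log2 scale (adjusted p = 0.578) and by 0.11 ± 0.08 in batch LA (adjusted p = 0.258). Lmna counts were thus not detectably lower in the hearts labelled Lmna shRNA, which are called shRNA-labelled below; every direction drawn from these groups rests on the label. With lamin C it was higher than in the shRNA-labelled hearts by 3.29 ± 0.09 and with lamin A by 2.07 ± 0.08 (adjusted p = 8.82e-15 and 1.79e-11), where counts of the mouse gene and of a delivered lamin sequence were not told apart. Libraries held 31418657 to 41259968 counts. Mitochondrially encoded genes took 25.2% to 25.5% of the counts in the LC controls, 13.0% to 15.6% in the LC shRNA-labelled hearts, 23.2% to 24.8% with lamin C, 26.4% to 27.0% in the LA controls, 14.1% to 15.1% in the LA shRNA-labelled hearts and 20.3% to 22.6% with lamin A. Scaling by library totals in place of TMM moved the median log2 difference of all tested genes between shRNA and control to 0.47 in batch LC and 0.48 in batch LA, and that of lamin C and lamin A against shRNA to -0.36 and -0.21. Under TMM these medians lay between -0.04 and 0.05, and the values below are relative to them. With library totals 10429 genes were called higher and 2415 lower between shRNA and control in batch LC, against 5948 and 5299 with TMM. All 12 cardiomyocyte markers had a mean above 1 CPM in every group. The third LC control library stood apart from the other two, being the highest of its group for 29 of the 40 tested collagens, and results that rest on it are given with and without it. By the same count lamin C library 2 and lamin A library 2 were each the lowest of their group for 31 of the 40, and LA control library 3 for 26. Without lamin C library 2, 28 collagens were called lower with lamin C than shRNA, and without lamin A library 2, 15 with lamin A, against 30 and 18 with all libraries. Without LA control library 3, 31 were called higher in the LA shRNA-labelled hearts, against 34.

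Collagen RNA was higher in the shRNA-labelled hearts of both batches, most strongly in the fibrillar and fibril-associated classes and less in the basement membrane. In whole tissue, more cells of a type and more RNA per cell cannot be told apart. In batch LC 33 of the 40 tested collagens were called higher than control and 1 lower at an adjusted p under 0.05 in edgeR's test, with a median log2 fold change of 1.64. Among all 17876 tested genes 33.3% were called higher and 29.6% lower, 62.9% in all, with a median of 0.05. In batch LA 34 collagens were called higher and 1 lower with a median of 1.55, against 32.4% of all genes higher, 29% lower and 61.4% either way. The single member called lower in each batch was Col6a6. The test of the difference between the batches' shRNA effects called 0 collagens higher and 0 lower in edgeR, with 0 members at an unadjusted p under 0.05 and 0 calls by DESeq2, where edgeR called 0.00559% of all genes.

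**Figure D1:**
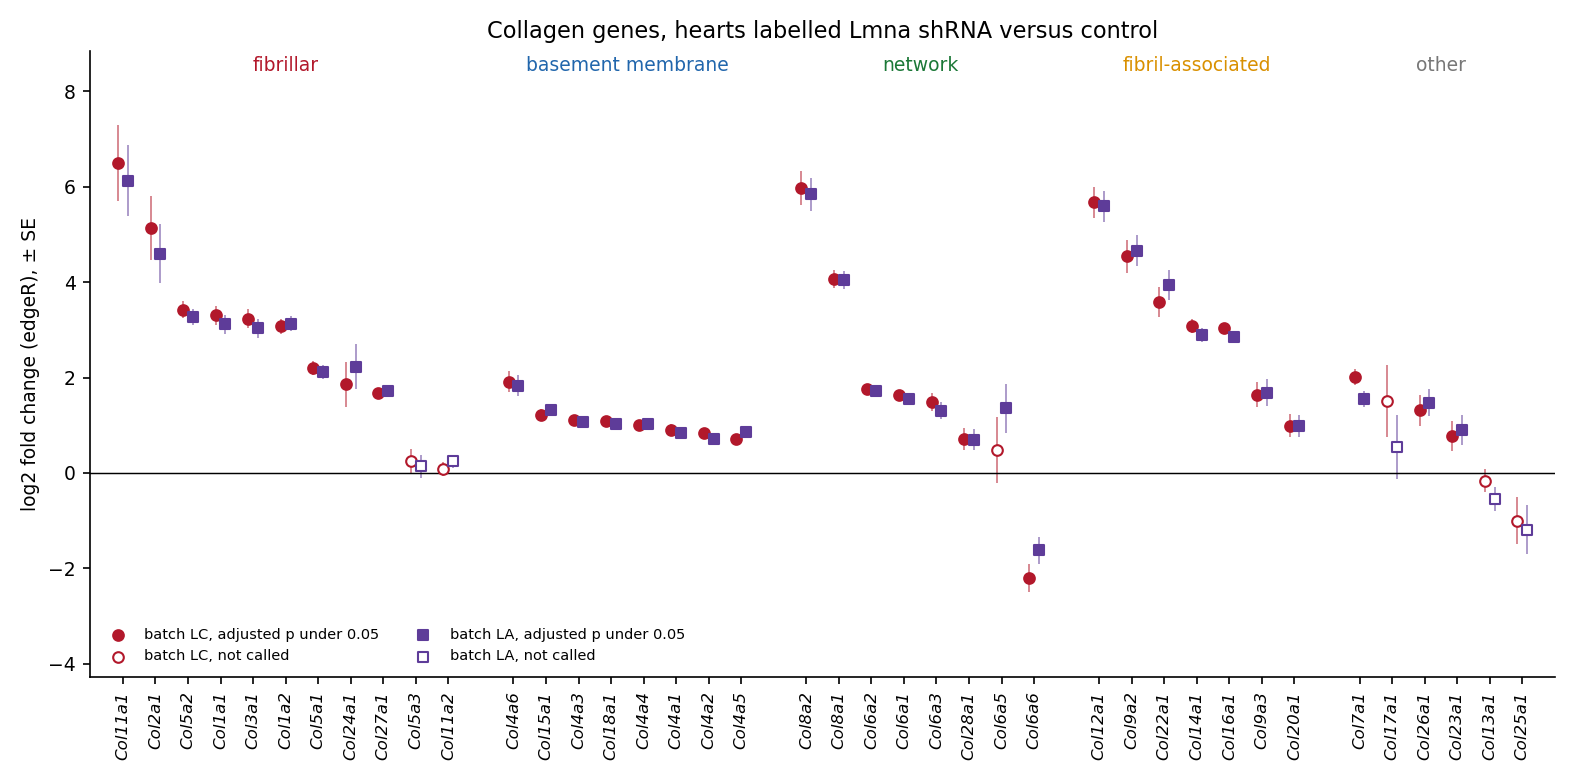
Log2 fold change of each of the 40 tested collagen genes in shRNA-labelled hearts over the controls of the same batch, with its SE, grouped by class on the horizontal axis; circles are batch LC, squares batch LA, and open symbols did not pass an adjusted p of 0.05. For most genes the points of both batches lie close together, with Col17a1 and Col6a5 furthest apart. Col8a1 and Col8a2 stand well above the other network collagens, and Col6a6 lies below 0. The fitted values of Col11a1 and Col2a1 rest on controls with very few counts, whose numbers are given in the text.

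As a share of all FPKM (counts per kilobase of gene over the library size), the summed collagens took 0.0926% ± 0.0160 (SD, n = 3) in the LC controls and 0.529% ± 0.0746 in the LC shRNA-labelled hearts. The LA values were 0.113% ± 0.00814 (control) and 0.623% ± 0.0471 (shRNA). The make-up of this collagen pool differed too. Basement membrane collagens made up 61.3% ± 0.373 of collagen FPKM in the LC controls and 30.8% ± 3.76 in the LC shRNA-labelled hearts, while the fibrillar share went from 22.9% ± 0.922 to 49.5% ± 4.20. In batch LA the basement membrane share was 61.8% ± 0.194 in controls and 32.2% ± 0.487 in shRNA-labelled hearts, and the fibrillar share 23.6% ± 0.404 and 49.3% ± 0.749. Network collagens made up 14.2% ± 0.625 in the LC controls and 16.3% ± 0.328 in the LC shRNA-labelled hearts. Fibril-associated collagens were a small part throughout, 1.46% ± 0.0794 in LC controls and 3.37% ± 0.270 in LC shRNA-labelled hearts. No test was made on these shares, which sum the chosen members.

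Ranked by FPKM, which allows levels of different genes to be compared within the table's gene lengths, Col4a1 led in both control groups with 121 ± 24.9 FPKM in batch LC and 158 ± 12.6 in batch LA. Col4a2 followed with 101 ± 15.6 and 127 ± 8.25. In the LC controls the FPKM ratio of Col4a1 to Col4a2 was 1.14, 1.15 and 1.25, so Col4a1 was the higher in each library. Col3a1 came next with 40.8 ± 8.56 and 52.0 ± 4.12. In the shRNA-labelled hearts Col3a1 led with 383 ± 114 FPKM in batch LC and 424 ± 27.6 in batch LA, ahead of Col4a1 at 226 ± 16.5 and 279 ± 13.1. Col3a1 also led with lamin A (397 ± 53.5), whereas with lamin C Col4a1 led (131 ± 10.3), followed by Col3a1 (111 ± 23.6). The spread between libraries does not measure a difference between genes within a library, and this order was not tested.

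**Figure D2:**
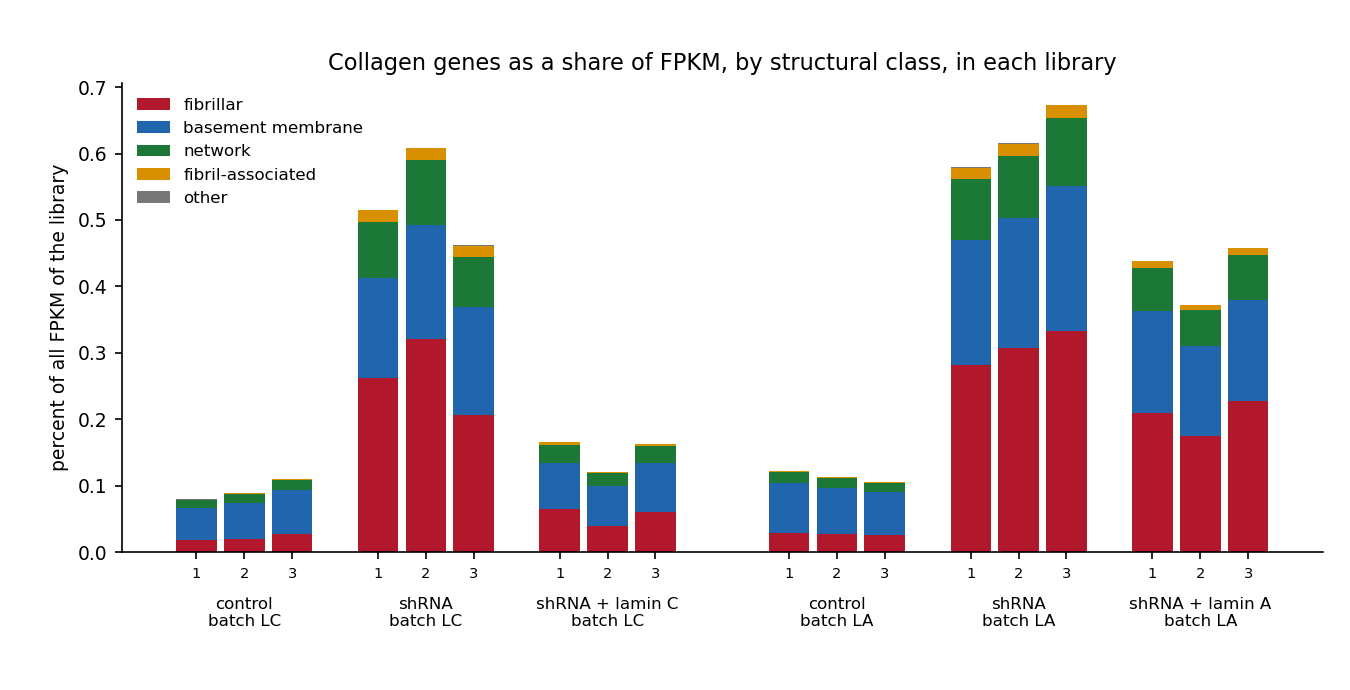
Summed FPKM of the collagen genes as a percent of all FPKM in each of the 18 libraries (bars, 1 per library, numbered by replicate), stacked by structural class. Bars of shRNA-labelled hearts are the tallest, fibrillar collagens form their largest block, and the bars with lamin C are closer to the controls than those with lamin A; the class called other is too small to be seen.

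Among fibrillar collagens 9 of 11 were called higher in the shRNA-labelled hearts of each batch and 0 lower, with class medians of 3.08 (LC) and 3.03 (LA) on the log2 scale. Col3a1 (ENSMUSG00000026043, chr1:45311538-45349706 in build mm10), which encodes type III collagen, stood at 341, 381 and 505 CPM in the LC controls and 4147, 4815 and 2600.3 in the LC shRNA-labelled hearts. In batch LA it stood at 566, 516 and 482 (control) and 3952, 4406 and 4461 (shRNA). The groups did not overlap, and the third LC shRNA library was the lowest of its 3. The difference was 3.24 ± 0.20 (SE), a 9.42-fold rise, in batch LC and 3.03 ± 0.20 in batch LA (adjusted p = 4.89e-11 and 1.24e-10). Col1a1 (ENSMUSG00000001506, chr11:94936224-94953042) and Col1a2 (ENSMUSG00000029661, chr6:4504814-4541544) encode the chains of type I collagen. Col1a1 was at 113, 125 and 170.1 CPM in the LC controls and 1217, 1725 and 1085 in the LC shRNA-labelled hearts, and at 189, 187 and 179 (control) and 1400.4, 1634 and 1787 (shRNA) in batch LA. Col1a2 was at 177, 200.4 and 236 (control) and 1770.2, 2030.3 and 1382 (shRNA) in batch LC and at 225, 210.2 and 212 (control) and 1823, 1918 and 1917 (shRNA) in batch LA. Both genes rose without overlap, Col1a1 by 3.30 ± 0.20 and 3.12 ± 0.20 and Col1a2 by 3.08 ± 0.16 and 3.13 ± 0.16 in batches LC and LA.

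Type V collagen sits in the core of type I fibrils and sets their diameter. Its chain gene Col5a2 was at 50.8, 57.4 and 75.6 CPM in the LC controls and 688, 712 and 575 in the LC shRNA-labelled hearts, and at 75.7, 70.8 and 67.3 (control) and 712, 654 and 707 (shRNA) in batch LA, a rise of 3.43 ± 0.17 and 3.28 ± 0.17. Col5a1, its partner chain, rose by 2.19 ± 0.15 and 2.11 ± 0.15. The third chain gene, Col5a3, differed by 0.25 ± 0.25 and 0.14 ± 0.24 and was not called (adjusted p = 0.395 and 0.639). Its library values, looked at after the tests, were 28.4, 28.04 and 73.3 CPM in the LC controls, with the third library far above the other two, and 49.7, 61.0 and 43.3 in the LC shRNA-labelled hearts. Without that control library the LC difference of Col5a3 was called (0.85, adjusted p = 1.82e-05). In batch LA, Col5a3 was at 95.4, 89.2 and 78.4 in controls and 88.2, 94.3 and 107 in shRNA-labelled hearts.

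Col27a1, a fibrillar collagen best known from cartilage, was at 10.9, 8.81 and 9.13 CPM in the LC controls and 31.4, 30.9 and 30.8 in the LC shRNA-labelled hearts, and at 8.69, 8.13 and 8.80 (control) and 25.1, 29.5 and 29.5 (shRNA) in batch LA; it rose by 1.69 ± 0.10 and 1.71 ± 0.10. Col24a1, at 0.294, 0.105 and 0.107 CPM in the LC controls, rose by 1.86 ± 0.47 and 2.23 ± 0.48. Col11a1, which encodes a chain of type XI collagen, was nearly absent from controls, with 2 counts over the 3 LC libraries and 3 over the 3 LA libraries. The LC shRNA-labelled hearts held 298 counts and the LA shRNA-labelled hearts 329, ratios of 104 (95% counting interval 28.5 to 861) and 77.2 (95% counting interval 26.2 to 376) after scaling. Col2a1, the main collagen of cartilage, went from 3 counts to 164 in batch LC, a ratio of 38.1 (95% counting interval 12.8 to 187), and from 5 to 182 in batch LA, where the fitted rise was 4.601 ± 0.61. These intervals cover counting error alone. Col11a2 differed by 0.08 ± 0.14 and 0.24 ± 0.14 and was not called.

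Of 8 listed cartilage markers (Acan, Sox9, Matn1, Matn3, Hapln1, Cnmd, Ucma and Snorc), Sox9, Acan and Cnmd had enough counts to be tested. Sox9, a transcription factor of chondrocytes and of other cells, was called higher by 2.56 ± 0.24 and 2.11 ± 0.23, and Cnmd lower in batch LA. The summed level of the 8 ranged from 3.20 to 5.54 CPM in the LC controls and from 18.9 to 24.7 in the LC shRNA-labelled hearts, and from 4.90 to 5.81 and from 17.6 to 22.7 in batch LA. Sox9 was the single marker with a group mean above 1 CPM in any group. Of the others, Snorc was at 0 in the LC controls and the LA shRNA-labelled hearts, and Matn3 and Ucma were at 0 in the LA controls.

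All 8 basement membrane collagens were called higher in the shRNA-labelled hearts of each batch, by less than the fibrillar ones, with medians of 1.046 (LC) and 1.03 (LA). The 6 type IV genes lie as 3 pairs of neighbours arranged head to head. Col4a1 (ENSMUSG00000031502, chr8:11198423-11312826) and Col4a2, whose annotated ends overlap by 22 bases, encode the common chains found in every basement membrane. Col4a1 was at 764, 862 and 1130.4 CPM in the LC controls and 1649, 1867 and 1669 in the LC shRNA-labelled hearts, and at 1299.5, 1207 and 1103 (control) and 2056, 2114 and 2254 (shRNA) in batch LA. Col4a2 was at 594, 662 and 801 (control) and 1129, 1287 and 1255 (shRNA) in batch LC and at 918, 858 and 803 (control) and 1385, 1373 and 1489 (shRNA) in batch LA. Neither overlapped between control and shRNA-labelled hearts within a batch. Col4a1 rose by 0.91 ± 0.11 (1.88-fold) and 0.83 ± 0.11, and Col4a2 by 0.83 ± 0.09 and 0.72 ± 0.09.

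Col4a3 and Col4a4, whose starts are 71 bases apart on chromosome 1, and Col4a5 on chromosome X encode the chains of the kidney glomerulus, lung and inner ear. In the shRNA-labelled hearts Col4a3 rose by 1.11 ± 0.11 (LC) and 1.07 ± 0.11 (LA) and Col4a4 by 1.003 ± 0.11 and 1.03 ± 0.11. Col4a5 was at 87.4, 87.1 and 91.8 CPM in the LC controls and 148, 142 and 149 in the LC shRNA-labelled hearts, and at 91.0, 91.2 and 85.7 (control) and 165, 153 and 166 (shRNA) in batch LA, a rise of 0.72 ± 0.07 and 0.85 ± 0.07. Its neighbour Col4a6, chosen for display after its values were seen, was at 2.35, 1.75 and 3.08 (control) and 9.52, 8.16 and 9.37 (shRNA) CPM in batch LC and at 3.21, 2.94 and 2.02 (control) and 11.02, 8.76 and 9.51 (shRNA) in batch LA, a rise of 1.91 ± 0.22 and 1.83 ± 0.21. Col4a5 and Col4a6, read from opposite strands with starts 1308 bases apart, thus had rises of different size, a difference between genes that was not itself tested.

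The upstream bases of Col4a5 and Col4a6 are shown because this pair shares its position but not the size of its rise. They are from RefSeq on build GRCm38.p6, at chrX:141475169-141475384 on the plus strand for Col4a5 and chrX:141474077-141474326 on the minus strand for Col4a6, written 5′ to 3′ on the strand of the gene and ending at its start. Capitals mark CCAAT or the GC box GGGCGG on either strand (read as ATTGG or CCGCCC there), overlapping matches included.
Col4a5: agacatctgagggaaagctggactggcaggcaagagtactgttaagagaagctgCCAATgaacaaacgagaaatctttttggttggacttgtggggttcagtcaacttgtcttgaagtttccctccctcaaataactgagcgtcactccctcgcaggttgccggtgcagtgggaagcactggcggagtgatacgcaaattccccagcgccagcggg
Col4a6: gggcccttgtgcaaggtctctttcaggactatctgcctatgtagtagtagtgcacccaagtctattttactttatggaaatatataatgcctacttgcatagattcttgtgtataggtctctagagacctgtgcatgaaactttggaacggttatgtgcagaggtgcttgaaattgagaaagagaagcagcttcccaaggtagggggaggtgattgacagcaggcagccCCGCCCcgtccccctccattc

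The Col4a5 stretch ends at the gene's start in the deposited table. It holds 1 CCAAT and 0 GC boxes, but the whole window of 250 bases before the RefSeq start, which ends further downstream, holds 1 GC box, as the Col4a6 window does, so the windows of the pair do not differ in that motif. The Col4a6 window holds 0 CCAAT. Multiplexins, the other basement membrane class, carry sugar chains and release fragments that act on vessels. Col15a1 was at 188, 209.9 and 239 CPM in the LC controls and 509, 573 and 399.6 in the LC shRNA-labelled hearts, and at 274, 260.5 and 230.1 (control) and 555, 649 and 705 (shRNA) in batch LA. It rose by 1.22 ± 0.12 and 1.32 ± 0.12 with no overlap. Col18a1, the source of endostatin, rose by 1.09 ± 0.10 and 1.03 ± 0.10; it overlaps Slc19a1 on the opposite strand over 8825 bases, and the sources used here do not say whether reads were counted by strand.

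Network-forming collagens moved in both directions. In batch LC 6 of 8 tested were called higher and 1 lower, and in batch LA 7 and 1. The short-chain pair of type VIII, made by vascular and other mesenchymal cells, had the largest rises of the class. Col8a1 (ENSMUSG00000068196, chr16:57624258-57754737) was at 41.6, 41.8 and 47.7 CPM in the LC controls and 761, 805 and 629 in the LC shRNA-labelled hearts, and at 45.3, 48.2 and 38.9 (control) and 749, 699 and 741 (shRNA) in batch LA. It rose by 4.07 ± 0.18 and 4.05 ± 0.18, 16.8-fold and 16.5-fold. Col8a2 (ENSMUSG00000056174, chr4:126286793-126314330), its partner on chromosome 4, was at 1.046, 0.421 and 0.501 CPM in the LC controls and 45.1, 41.8 and 38.8 in the LC shRNA-labelled hearts, and at 1.11, 0.588 and 0.397 (control) and 37.3, 41.7 and 44.1 (shRNA) in batch LA. Its rise was 5.97 ± 0.35 and 5.84 ± 0.35, from a control level of about 1 CPM or less.

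The upstream bases of Col8a1, at chr16:57754738-57754987 on the minus strand, and Col8a2, at chr4:126286544-126286792 on the plus strand, are shown because these genes, on different chromosomes, rose most among the network collagens. Source, strand and capitals are as above.
Col8a1: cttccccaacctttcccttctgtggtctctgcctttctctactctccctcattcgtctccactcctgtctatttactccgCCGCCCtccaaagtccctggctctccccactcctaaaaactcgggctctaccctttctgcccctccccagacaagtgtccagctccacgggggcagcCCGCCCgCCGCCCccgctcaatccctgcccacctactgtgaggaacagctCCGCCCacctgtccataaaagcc
Col8a2: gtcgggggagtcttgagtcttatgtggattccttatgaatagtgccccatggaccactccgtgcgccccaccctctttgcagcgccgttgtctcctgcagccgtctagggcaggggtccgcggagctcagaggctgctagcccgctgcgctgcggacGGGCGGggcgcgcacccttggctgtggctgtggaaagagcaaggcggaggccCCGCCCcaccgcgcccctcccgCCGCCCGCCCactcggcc

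Each of these stretches holds 4 matches to the GC box and 0 to CCAAT. Upstream windows of 250 bases were found for 35 of the 44 collagens. The GC box was present in 60.0% of them against 35.4% of 27025 genes with a window, CCAAT in 37.1% against 37.5%, TATAAA in 14.3% against 14.3%, and CAGACA, a motif of SMAD factors, in 25.7% against 19.3%, all on either strand. Median GC content was 59.0% in the collagen windows and 52.4% in all windows. A match describes the letters and says nothing of a bound factor.

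Type VI collagen forms beaded microfilaments close to the basement membrane, from the chains of Col6a1, Col6a2 and Col6a3. Col6a1 was at 137, 145 and 175 CPM in the LC controls and 473, 541 and 411 in the LC shRNA-labelled hearts, and at 192, 182 and 164 (control) and 498, 527 and 548 (shRNA) in batch LA. Col6a2 was at 127, 145 and 162 (control) and 498, 572 and 396 (shRNA) in batch LC and at 183, 173 and 152 (control) and 527, 565 and 588 (shRNA) in batch LA. Col6a3 was at 46.6, 47.6 and 69.9 (control) and 151, 201 and 107 (shRNA) in batch LC and at 83.6, 79.5 and 64.9 (control) and 161, 195 and 208 (shRNA) in batch LA. All 3 were higher in every shRNA library than in every control library of the batch. The rises were 1.64 ± 0.10 and 1.55 ± 0.10 for Col6a1, 1.76 ± 0.12 and 1.73 ± 0.12 for Col6a2, and 1.49 ± 0.19 and 1.31 ± 0.19 for Col6a3.

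Col6a6, which encodes an alternative type VI chain, went the other way. It was at 9.83, 10.0001 and 11.2 CPM in the LC controls and 1.66, 3.84 and 1.35 in the LC shRNA-labelled hearts, and at 10.9, 9.83 and 11.1 (control) and 2.31, 3.52 and 4.47 (shRNA) in batch LA. Every shRNA library lay below every control library. It changed by -2.20 ± 0.29 in batch LC and -1.62 ± 0.27 in batch LA on the log2 scale (adjusted p = 1.76e-06 and 3.96e-05). Its neighbours on chromosome 9 did not show this: Col6a5 differed by 0.48 ± 0.69 in batch LC (adjusted p = 0.566) and was called higher in batch LA (1.36 ± 0.51, adjusted p = 0.0276), and Col6a4 was too low to test. The LA call of Col6a5 was lost without any 1 of LA control libraries 1 and 3 and LA shRNA library 3 (0.99 to 1.15, adjusted p = 0.101 to 0.144). Col28a1, found mainly around peripheral nerves, was called higher by 0.72 ± 0.22 and 0.70 ± 0.23. Its LC call was lost without LC control library 3 (0.52, adjusted p = 0.0613) and its LA call without any 1 of LA control library 3 and LA shRNA library 1 (0.59 to 0.60, adjusted p = 0.0502 to 0.056). Among 8 Schwann cell markers 3 were called higher and 1 lower in batch LC and 3 and 0 in batch LA, with summed levels of 22.9 to 24.3 CPM in LC controls and 28.2 to 30.8 in LC shRNA-labelled hearts; the higher counts lie near the 33.3% and 32.4% of all genes called higher in the batches, and the part of these cells in the Col28a1 result was not tested.

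All 7 tested fibril-associated collagens were called higher in the shRNA-labelled hearts of each batch, with medians of 3.08 and 2.90. Col12a1, which coats fibrils in tissue under strain, was at 1.21, 1.47 and 1.86 CPM in the LC controls and 91.8, 90.1 and 49.0 in the LC shRNA-labelled hearts, and at 2.13, 1.73 and 1.51 (control) and 86.7, 83.8 and 89.96 (shRNA) in batch LA. It rose by 5.67 ± 0.33 and 5.59 ± 0.32, 51.0-fold and 48.1-fold, with the third LC shRNA library below the other two. Col14a1, a related fibril-surface collagen of fibroblasts, was at 19.7, 24.1 and 26.2 (control) and 201, 211 and 181 (shRNA) CPM in batch LC and at 27.0, 23.5 and 25.4 (control) and 180.3, 195 and 190.1 (shRNA) in batch LA. Col16a1 was at 15.6, 16.2 and 16.7 (control) and 135, 137 and 125 (shRNA) in batch LC and at 17.7, 17.4 and 18.4 (control) and 123, 126 and 137 (shRNA) in batch LA. Neither gene overlapped between the groups. They rose by 3.08 ± 0.15 and 2.90 ± 0.15 (Col14a1) and by 3.03 ± 0.12 and 2.85 ± 0.11 (Col16a1).

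Col9a2, a type IX chain known from cartilage, was at 0.196, 0.456 and 0.537 CPM in the LC controls and 9.17, 9.999 and 8.38 in the LC shRNA-labelled hearts, and at 0.414, 0.784 and 0.252 (control) and 12.4, 13.3 and 11.6 (shRNA) in batch LA, a rise of 4.54 ± 0.35 and 4.66 ± 0.33. Its partner chain Col9a3 rose by 1.64 ± 0.27 and 1.69 ± 0.28, and the other partner, Col9a1, held 2 counts in all. Col22a1, a collagen of the junction of muscle and tendon, whose library values were looked at after the tests, was at 0.980, 0.632 and 0.931 CPM in the LC controls and 12.03, 13.2 and 5.55 in the LC shRNA-labelled hearts, and at 0.668, 1.08 and 0.721 (control) and 11.8, 13.5 and 13.0 (shRNA) in batch LA. It rose by 3.59 ± 0.31 and 3.95 ± 0.31. Col20a1 rose by 0.99 ± 0.24 and 0.99 ± 0.23, but a transcript on its own strand, 9230112E08Rik, holds more counts (3713) than Col20a1 (2573) and overlaps it, so its value is uncertain.

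Of the 6 other collagens 3 were called higher in each batch and 0 lower. Among all genes 33.3% were called higher in batch LC and 32.4% in batch LA, so 3 of 6 says little about this class. Col7a1, the anchoring fibril of skin, was at 1.86, 1.298 and 1.75 CPM in the LC controls and 6.60, 5.76 and 7.57 in the LC shRNA-labelled hearts, and at 2.29, 1.89 and 1.84 (control) and 5.45, 5.88 and 6.38 (shRNA) in batch LA. It rose by 2.02 ± 0.17 and 1.55 ± 0.16 with no overlap. Col26a1 was at 0.490, 0.596 and 0.358 (control) and 1.47, 1.47 and 0.662 (shRNA) in batch LC and at 0.923, 0.686 and 0.757 (control) and 2.03, 2.67 and 1.90 (shRNA) in batch LA, and rose by 1.32 ± 0.32 and 1.47 ± 0.28. The membrane-spanning Col23a1 was at 1.47, 2.14 and 1.75 (control) and 2.99, 2.24 and 3.999 (shRNA) in batch LC and at 2.07, 1.18 and 1.37 (control) and 3.47, 3.29 and 1.90 (shRNA) in batch LA. It was called higher by 0.78 ± 0.31 and 0.90 ± 0.32, but its LC call was lost without any 1 of LC control libraries 1 and 3 and LC shRNA libraries 1 and 3 (0.56 to 0.81, adjusted p = 0.061 to 0.163) and its LA call without any 1 of LA control libraries 2 and 3 and LA shRNA libraries 1 and 2 (0.73 to 0.82, adjusted p = 0.0657 to 0.0924). Col13a1, another membrane collagen, was at 1.08, 1.23 and 1.15 (control) and 1.29, 0.640 and 1.12 (shRNA) in batch LC and at 1.15, 1.34 and 0.938 (control) and 0.731, 0.786 and 0.835 (shRNA) in batch LA and was not called (-0.17 ± 0.24 and -0.54 ± 0.25); it passed in batch LA without LA control library 3 (-0.67, adjusted p = 0.0407). Col25a1 was not called either (-1.004 ± 0.49 and -1.19 ± 0.52), but passed without LC control library 3 (-1.26, adjusted p = 0.045), LA control library 1 (-1.51, adjusted p = 0.0228) or LA shRNA library 3 (-1.59, adjusted p = 0.0336). Col17a1, a collagen of skin cell adhesion, differed by 1.51 ± 0.76 and 0.54 ± 0.67 and was called in batch LC only without LC shRNA library 2 (1.85, adjusted p = 0.044).

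**Figure D3:**
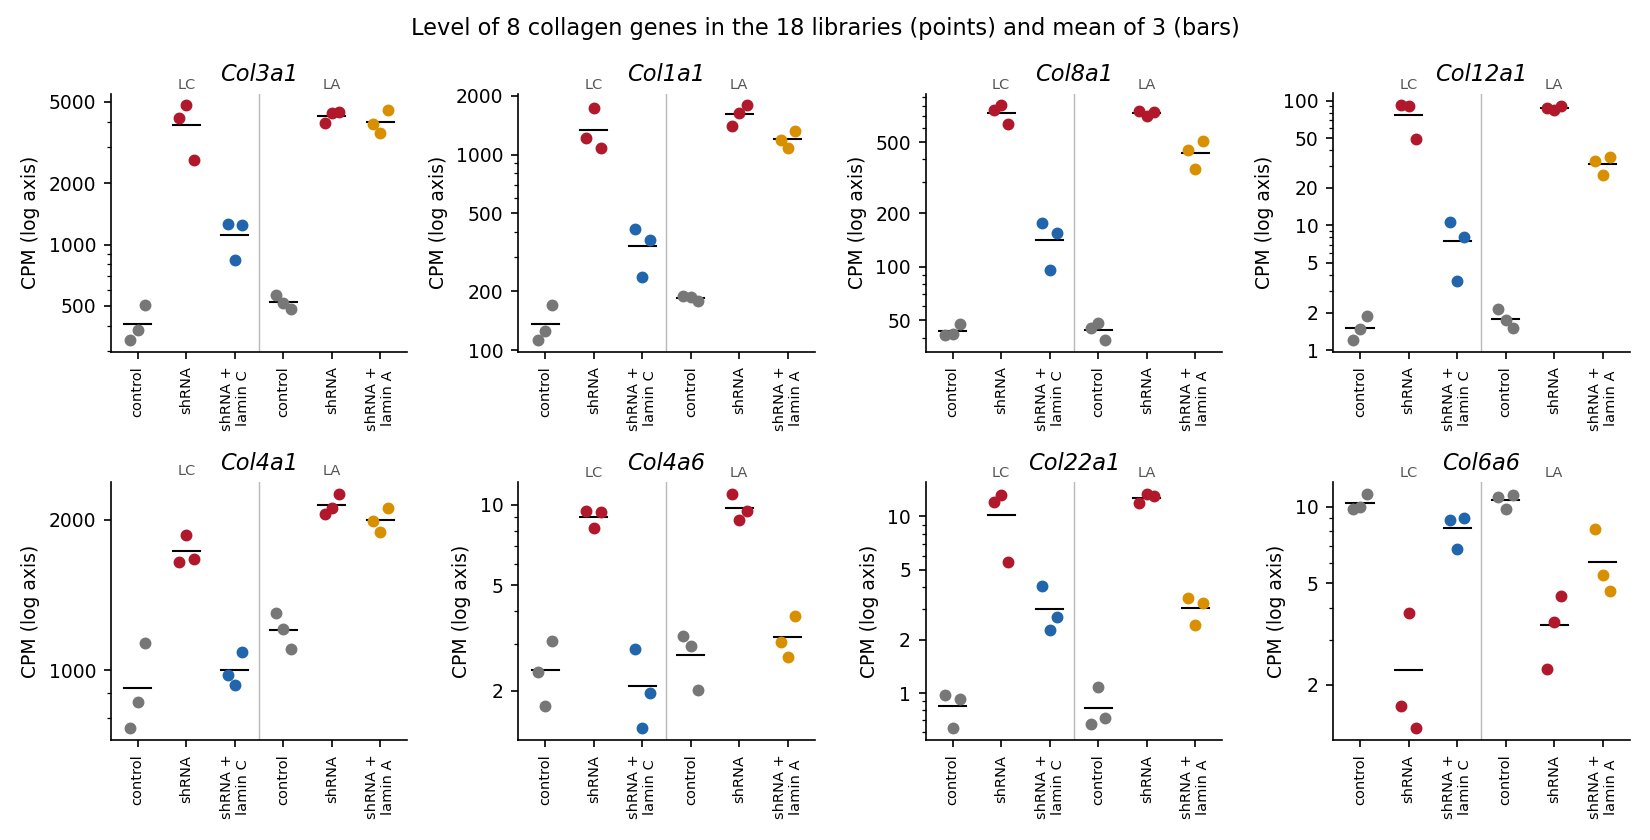
CPM of 8 collagen genes on a log axis in each of the 18 libraries (points) with the mean of each group of 3 (bars), batch LC on the left and batch LA on the right of each panel. Shown are the fibrillar Col3a1 and Col1a1, the network Col8a1, the fibril-associated Col12a1 and Col22a1, the basement membrane Col4a1 and Col4a6, and Col6a6, the member that fell; with lamin A the points of Col3a1 and Col4a1 overlap those of the LA shRNA-labelled hearts, whereas those of Col4a6 and Col22a1 lie well below them.

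Chains that assemble together did not always move by the same factor. Ratios of FPKM of 6 pairs were compared between control and shRNA-labelled hearts by an exact two-sided permutation test within batches (400 arrangements, adjusted over the 6). The ratio of Col5a1 to Col5a2 was 2.05, 1.85 and 1.68 in the LC controls and 0.779, 0.858 and 0.689 in the LC shRNA-labelled hearts, and 1.87, 1.81 and 1.93 and 0.767, 0.851 and 0.880 in batch LA. It fell by 1.22 on the log2 scale (exact p = 0.005, adjusted p = 0.015), the smallest p this design allows. The ratio of Col8a1 to Col8a2 was 22.8, 56.8 and 54.6 in the LC controls and 9.67, 11.04 and 9.29 in the LC shRNA-labelled hearts, and 23.3, 47.0 and 56.2 and 11.5, 9.62 and 9.64 in batch LA, and fell by 2.001 (exact p = 0.005, adjusted p = 0.015). In the controls this ratio rests on the low level of Col8a2.

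The other pairs differed far less. Col6a1 to Col6a2 fell by 0.14 on the log2 scale (exact p = 0.01, adjusted p = 0.02). Col4a1 to Col4a2 rose by 0.10 (exact p = 0.02, adjusted p = 0.03) and did not pass without LC control library 1 or 2 or LC shRNA library 1 or 2 (0.09, adjusted exact p = 0.06 to 0.0825). The type I chains Col1a1 to Col1a2 differed by 0.10 (exact p = 0.2, adjusted p = 0.24), with 0.22 in batch LC and -0.02 in batch LA. Type I against type III, as Col1a1 to Col3a1, was at 0.497 ± 0.00585 in the LC controls and 0.533 ± 0.0926 in the LC shRNA-labelled hearts and differed by 0.08 over both batches (exact p = 0.335, adjusted p = 0.335). It passed without LC shRNA library 1 (log2 difference 0.15, adjusted exact p = 0.0375). With the lamins, where 3 libraries against 3 cannot go below an exact p of 0.10 and no test was made, Col5a1 to Col5a2 stood at 1.60 ± 0.115 with lamin C and 1.14 ± 0.0562 with lamin A, and Col8a1 to Col8a2 at 25.7 ± 5.10 and 14.7 ± 2.85.

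**Figure D4:**
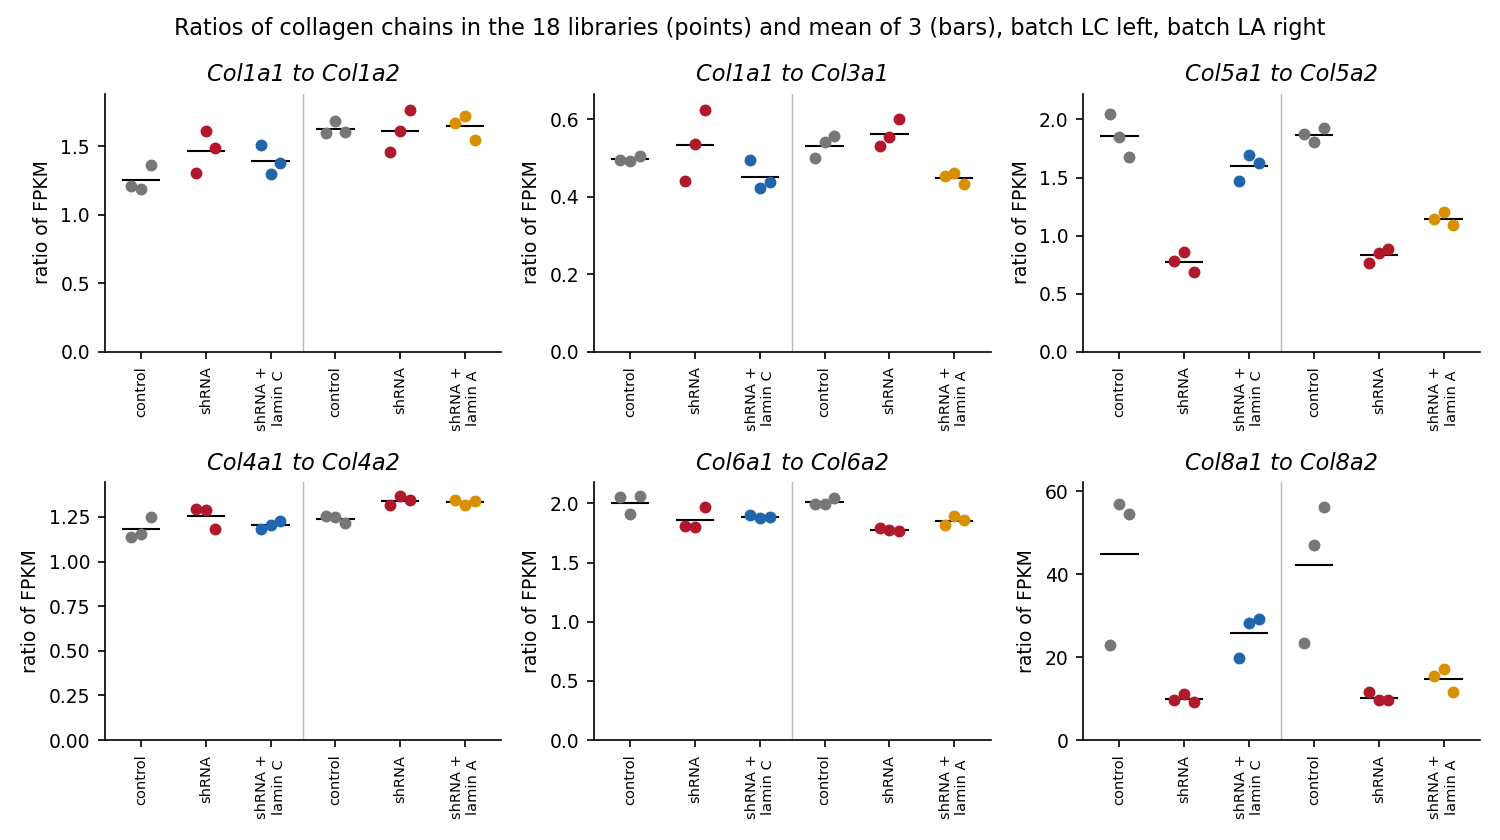
Ratio of FPKM of 6 pairs of collagen chains in each of the 18 libraries (points) with the group mean (bars), on linear axes that start at 0, batch LC left and batch LA right of the line. The Col5a1 to Col5a2 ratio of every control library lies above that of every shRNA library, as does that of Col8a1 to Col8a2, while the pairs Col1a1 to Col1a2 and Col1a1 to Col3a1 overlap.

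Genes that fold, process, bind and degrade collagen were read in the same comparison, from lists chosen with earlier results of these data known. Of all genes 33.3% were called higher and 29.6% lower in batch LC, and 32.4% and 29% in batch LA. Of 22 genes of collagen modification and folding in the endoplasmic reticulum, 16 were called higher and 4 lower in batch LC (median 0.83) and 16 and 2 in batch LA (median 0.80). The proline hydroxylase P3h3 rose by 1.74 ± 0.09 and 1.69 ± 0.09, and Sparc, a secreted collagen chaperone, by 1.81 ± 0.10 and 1.72 ± 0.10. Of 14 genes of propeptide cleavage and crosslinking, 11 were called higher and 1 lower in batch LC (median 1.57) and 11 and 2 in batch LA (median 1.88). Lox, an oxidase of collagen crosslinking, was at 5.10, 3.75 and 7.34 CPM in the LC controls and 237, 212 and 217 in the LC shRNA-labelled hearts and rose by 5.36 ± 0.25 and 5.03 ± 0.24. The related Loxl3 rose by 3.48 ± 0.16 and 3.47 ± 0.16, and the procollagen protease Adamts2 by 2.77 ± 0.14 and 2.67 ± 0.14. Of 14 tested fibril regulators, 13 were called higher and 1 lower in batch LC (median 2.18) and 13 and 0 in batch LA (median 2.17), among them periostin (Postn, 5.49 ± 0.24 and 5.37 ± 0.24) and biglycan (Bgn, 3.09 ± 0.13 and 2.83 ± 0.13).

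Of 11 collagen receptors, 7 were called higher and 2 lower in batch LC (median 0.65) and 7 and 3 in batch LA (median 0.75). Mrc2, which takes up collagen fragments into fibroblasts, rose by 1.90 ± 0.13 and 1.99 ± 0.13, and the leukocyte receptor Lair1 by 1.93 ± 0.12 and 1.90 ± 0.12. Of 14 tested genes of collagen degradation, 11 were called higher and 1 lower in batch LC (median 1.10) and 11 and 2 in batch LA (median 0.98). Timp1, an inhibitor of the collagenases, rose by 5.86 ± 0.25 and 5.68 ± 0.24, and the gelatinase Mmp2 rose by 2.13 ± 0.12 and 1.86 ± 0.12. Of 16 non-collagen basement membrane genes 6 were called higher and 5 lower in batch LC (median 0.15) and 7 and 3 in batch LA (median 0.10), near the shares of all genes in batch LC. Lamb3, a laminin chain, changed by -1.88 ± 0.16 and -1.53 ± 0.16, and Lamc1, the common laminin gamma chain, rose by 0.73 ± 0.07 and 0.91 ± 0.07. Of 15 tested genes of the TGF-beta pathway, the main inducer of collagen genes in fibroblasts, 12 were called higher and 2 lower in batch LC (median 1.23) and 12 and 0 in batch LA (median 1.24). Ltbp2, which binds the extracellular matrix, rose by 6.07 ± 0.32 and 5.73 ± 0.31.

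Markers of the heart's cell types were counted too, against the same shares of all genes. All 10 activated fibroblast markers were called higher in the shRNA-labelled hearts of each batch. Their summed level was 249.7 to 376 CPM in LC controls, 4725 to 6019 in LC shRNA-labelled hearts, 356 to 423 in LA controls and 5546 to 5807 in LA shRNA-labelled hearts. Of 10 resident fibroblast markers 6 were called higher and 1 lower in batch LC, with sums of 1618 to 1948 and 2611 to 3386 CPM. All 12 macrophage markers were called higher in each batch (433 to 541 and 1697 to 1875 CPM in LC controls and shRNA-labelled hearts). All 12 cardiomyocyte markers were called lower, with sums of 105477 to 112159 and 38891 to 47518 CPM, and of 12 endothelial markers 11 were called lower and 1 higher in batch LC. Of 10 smooth muscle and pericyte markers 4 were called higher and 5 lower in batch LC. Postn, Comp, Fap and Ltbp2 stand both on the activated fibroblast list and on lists above. Acta2 is on both the activated fibroblast and the smooth muscle and pericyte lists. Lamc3 is on both the resident fibroblast and the non-collagen basement membrane lists. No marker on these 6 lists was at 0 in any group. Of further lists in batch LC, atrial cardiomyocyte markers gave 4 higher and 2 lower calls, mesothelial 0 and 0, adipocyte 1 and 0, and erythroid 0 and 5. Atrial markers summed to 424 to 496 CPM in LC controls and 2522 to 3586 in LC shRNA-labelled hearts. In batch LA they summed to 404 to 513 (control) and 2546 to 3871 (shRNA). Erythroid markers summed to 80.1 to 155 CPM in LC controls and 27.2 to 89.2 in LC shRNA-labelled hearts. The part of these cell types in the collagen results was not tested.

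With lamin C, collagen RNA was lower than in the shRNA-labelled hearts of the same batch in each of the fibrillar, basement membrane, network and fibril-associated classes, with the largest falls in Col8a2 and Col12a1. Of the 40 tested collagens 30 were called lower and 2 higher, with a median of -1.047, where 28.4% of all genes were called lower, 25.7% higher and 54.1% either way. With lamin A, 18 were called lower than in the LA shRNA-labelled hearts and 1 higher, with a median of -0.46, where 13.7% of all genes were called lower, 16.1% higher and 29.8% either way. When libraries were scaled to their totals, lamin A gave 27 lower and 0 higher calls, around a median of all genes of -0.21. Both comparisons of a batch use the same shRNA libraries as the comparison with control, so a library that is high there lowers the lamin difference as it raises the shRNA difference. The summed collagens took 0.150% ± 0.0249 of all FPKM with lamin C and 0.422% ± 0.0449 with lamin A.

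**Figure D5:**
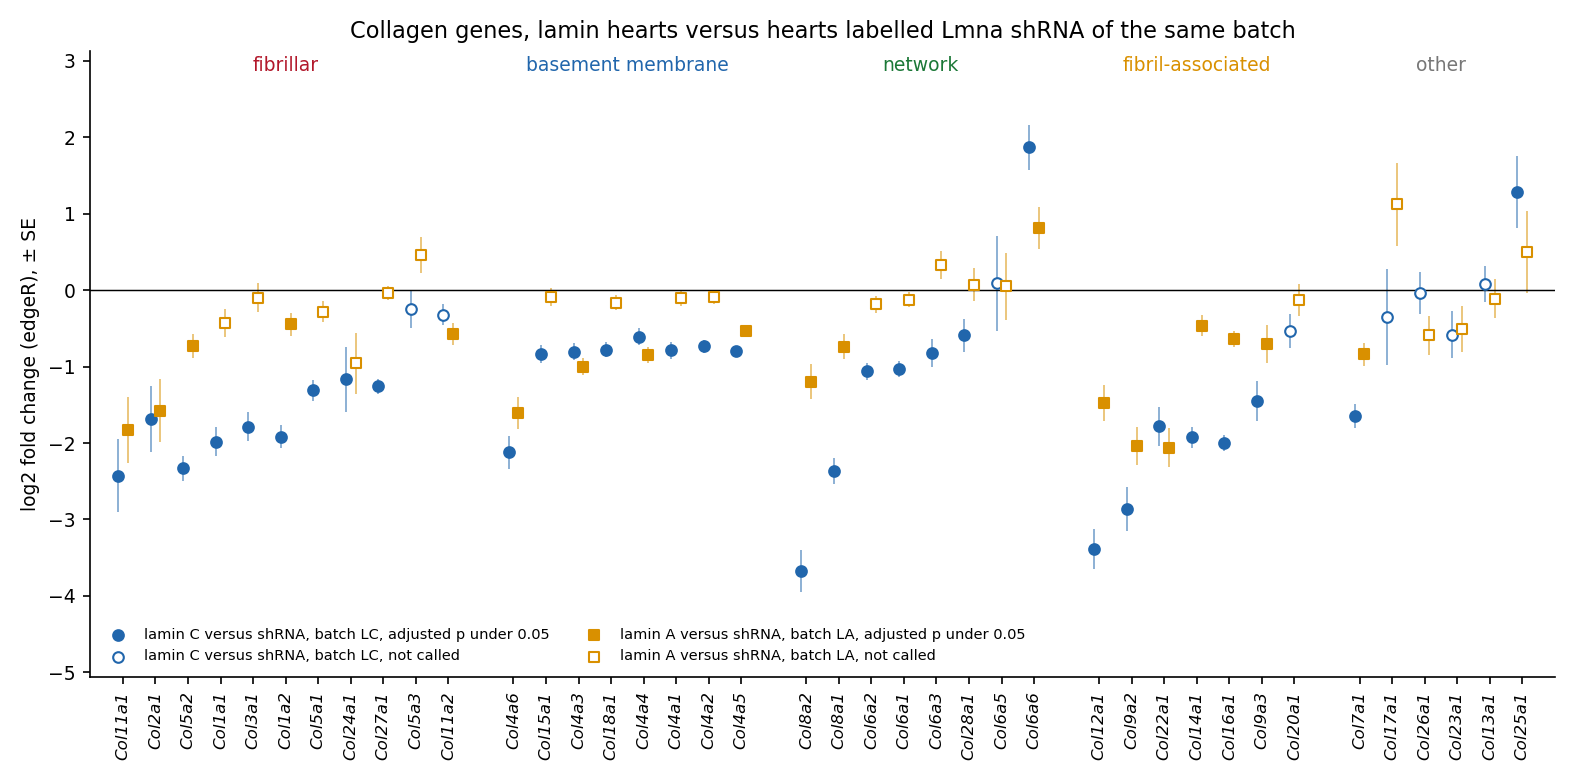
Log2 fold change of each of the 40 tested collagen genes, with its SE, in lamin C hearts over the LC shRNA-labelled hearts (circles) and in lamin A hearts over the LA shRNA-labelled hearts (squares), with genes grouped by class on the horizontal axis; open symbols did not pass an adjusted p of 0.05. Most circles lie below their squares, but Col4a3, Col4a4, Col22a1 and Col2a1 have both symbols close together, and Col6a6 lies above 0 under each lamin.

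The fibrillar class had 9 of 11 members called lower with lamin C (median -1.68) and 5 with lamin A (median -0.45). Col3a1 stood at 1263, 841 and 1247 CPM with lamin C, below every LC shRNA library and above every LC control. With lamin A it stood at 3905, 3503 and 4580.0, overlapping the LA shRNA-labelled hearts. The differences from shRNA were -1.79 ± 0.19 with lamin C (adjusted p = 1.7e-07) and -0.10 ± 0.18 with lamin A (adjusted p = 0.741). Col1a1 stood at 418, 237 and 364 CPM with lamin C and 1182, 1077 and 1324 with lamin A, differences of -1.98 ± 0.19 and -0.43 ± 0.18 (adjusted p = 4.08e-08 and 0.0864). Col1a2 stood at 524, 347 and 502 with lamin C and 1341, 1186 and 1623 with lamin A, differences of -1.92 ± 0.15 and -0.45 ± 0.15; the lamin A call (adjusted p = 0.0262) was lost without any 1 of LA shRNA libraries 2 and 3 and lamin A libraries 1 and 2 (-0.43 to -0.34, adjusted p = 0.0657 to 0.136). With lamin A, Col1a1 and Col1a2 lay below every LA shRNA library, by much less than with lamin C. Col5a2 stood at 157, 94.1 and 142 CPM with lamin C and 426, 348 and 474 with lamin A and fell under both, changing by -2.33 ± 0.16 and -0.73 ± 0.16. Col27a1 stood at 13.8, 11.8 and 13.4 (lamin C) and 27.0, 23.5 and 31.3 (lamin A) and differed by -1.26 ± 0.10 and -0.04 ± 0.10, the latter not called.

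Col11a1 and Col2a1 passed the filter on low counts through the shRNA-labelled hearts, so their differences from that group are a description. Col11a1 held 44 counts with lamin C and 83 with lamin A, and Col2a1 41 and 54. Col11a1 differed from shRNA by -2.43 ± 0.47 with lamin C and -1.83 ± 0.43 with lamin A, Col2a1 by -1.68 ± 0.43 and -1.58 ± 0.41. Col11a2, not called between shRNA and control, was called lower with lamin A (-0.57 ± 0.14, adjusted p = 0.0042) and not with lamin C (-0.32 ± 0.14). Col24a1 was called lower with lamin C (-1.17 ± 0.42) and not with lamin A (-0.96 ± 0.40). Its lamin C call was lost without any 1 of LC shRNA libraries 1 and 2 and lamin C libraries 1, 2 and 3 (-1.23 to -0.90, adjusted p = 0.0513 to 0.13). Col24a1 held few counts, 28 with lamin C and 40 with lamin A. It was highest in the shRNA-labelled hearts (80 in LC, 88 in LA), so its differences from that group are a description too. Col5a3 stood at 41.03, 37.5 and 51.3 CPM with lamin C and 132, 134 and 132 with lamin A and was not called against shRNA under either.

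All 8 basement membrane collagens were called lower than shRNA with lamin C (median -0.79), and 4 with lamin A (median -0.35). Col4a1 stood at 979, 932 and 1089 CPM with lamin C and 1992, 1892 and 2112 with lamin A, and Col4a2 at 735, 685 and 785 (lamin C) and 1311, 1276 and 1399.5 (lamin A). The common pair fell with lamin C, changing by -0.79 ± 0.11 and -0.74 ± 0.09, and was not called with lamin A (-0.10 ± 0.11 and -0.09 ± 0.09). Col15a1, at 287, 254 and 288 (lamin C) and 605, 555 and 639 (lamin A) CPM, and Col18a1 showed the same, with -0.84 ± 0.12 and -0.78 ± 0.10 under lamin C and -0.09 ± 0.12 and -0.16 ± 0.10 under lamin A.

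The 4 members called lower under lamin A were the remaining type IV chains, Col4a3 to Col4a6. Col4a3, picked for its library values after the tests, was at 24.2, 20.9 and 20.4 CPM in the LA shRNA-labelled hearts, 12.4, 9.57 and 10.8 with lamin A and 11.01, 10.6 and 9.41 in the LA controls, and at 12.8, 10.46 and 12.5 with lamin C against 20.6, 18.9 and 22.8 in the LC shRNA-labelled hearts. It changed by -1.001 ± 0.11 with lamin A and -0.80 ± 0.11 with lamin C, and Col4a4 by -0.85 ± 0.11 and -0.61 ± 0.11. With lamin A, Col4a3 overlapped the LA controls. Col4a5 stood at 123, 99.4 and 113 with lamin A and 88.2, 75.4 and 88.1 with lamin C and changed by -0.53 ± 0.07 and -0.80 ± 0.07. Col4a6 stood at 3.06, 2.67 and 3.84 with lamin A and 2.86, 1.45 and 1.97 with lamin C and changed by -1.61 ± 0.20 and -2.12 ± 0.22 to levels overlapping the controls of each batch.

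Of the network class 6 of 8 were called lower and 1 higher with lamin C, and 2 and 1 with lamin A. Col8a1 stood at 176, 95.5 and 154 CPM with lamin C and 450.2, 355 and 506 with lamin A, and Col8a2 at 5.06, 1.94 and 3.04 (lamin C) and 16.8, 11.8 and 25.0 (lamin A). Both fell under each lamin without overlap with the shRNA-labelled hearts, Col8a1 changing by -2.37 ± 0.17 and -0.74 ± 0.16 and Col8a2 by -3.67 ± 0.27 and -1.195 ± 0.23. The main type VI chains fell with lamin C: Col6a1 changed by -1.03 ± 0.10, Col6a2 by -1.06 ± 0.11 and Col6a3 by -0.82 ± 0.18, against -0.12 ± 0.10, -0.18 ± 0.11 and 0.33 ± 0.18 with lamin A, none of them called. Their levels were 244, 206 and 246 CPM with lamin C and 471, 450.2 and 521 with lamin A for Col6a1, 245, 209 and 248 (lamin C) and 492, 453 and 534 (lamin A) for Col6a2, and 91.6, 74.2 and 95.1 (lamin C) and 255, 208 and 247 (lamin A) for Col6a3. For Col6a3, lamin A libraries 1 and 3 lay above every LA shRNA library, and lamin A library 2 lay near the highest of them. Col6a6 was higher than in shRNA-labelled hearts under both lamins, at 8.83, 6.85 and 9.03 with lamin C (1.87 ± 0.29, adjusted p = 1.98e-05) and 8.20, 5.37 and 4.67 with lamin A (0.82 ± 0.28, adjusted p = 0.0324). The lamin A call of Col6a6 was lost without any 1 of LA shRNA libraries 1 and 2 and lamin A library 1 (0.55 to 0.83, adjusted p = 0.0677 to 0.189). Col28a1 was called lower with lamin C (-0.59 ± 0.22), a call lost without any 1 of LC shRNA libraries 1 and 2 and lamin C libraries 1 and 2 (-0.58 to -0.45, adjusted p = 0.0637 to 0.127).

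Of the 7 tested fibril-associated collagens 6 were called lower with lamin C (median -1.92) and 6 with lamin A (median -0.70). Col12a1 stood at 10.7, 3.55 and 8.13 CPM with lamin C and 33.1, 25.5 and 35.0 with lamin A and changed by -3.39 ± 0.26 and -1.48 ± 0.23. Col14a1 stood at 62.4, 40.3 and 53.8 (lamin C) and 149, 109 and 152 (lamin A) and changed by -1.92 ± 0.14 and -0.46 ± 0.13; its lamin A call was lost without lamin A library 2 (-0.32, adjusted p = 0.0853). Col16a1 stood at 40.2, 26.9 and 32.4 (lamin C) and 83.6, 71.2 and 93.2 (lamin A) and changed by -1.999 ± 0.11 and -0.64 ± 0.10. All of these lamin C libraries lay below all lamin A libraries of the same gene. They come from different batches, so these levels alone do not compare the lamins. Col9a2 stood at 1.73, 0.846 and 1.25 (lamin C) and 3.17, 1.71 and 4.13 (lamin A) and changed by -2.86 ± 0.28 and -2.04 ± 0.25. Col22a1 stood at 4.06, 2.27 and 2.68 (lamin C) and 3.46, 2.43 and 3.25 (lamin A) and changed by -1.78 ± 0.26 and -2.06 ± 0.25. Its lamin A libraries lay within the span of the lamin C ones or close to it, again across batches. Col9a3 fell with lamin C (-1.45 ± 0.26) and was called with lamin A too (-0.70 ± 0.25), a call lost without any 1 of LA shRNA libraries 1 and 2 and lamin A libraries 1, 2 and 3 (-0.78 to -0.40, adjusted p = 0.0571 to 0.279). Among the other collagens Col7a1 stood at 2.20, 1.86 and 2.32 (lamin C) and 2.83, 3.31 and 3.72 (lamin A) and changed by -1.64 ± 0.16 and -0.84 ± 0.15. Col25a1 was called higher with lamin C (1.28 ± 0.47, adjusted p = 0.0286), a call lost without any 1 of LC shRNA libraries 1 and 3 and lamin C libraries 2 and 3 (1.03 to 1.27, adjusted p = 0.0635 to 0.122).

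The size of the lamin effects differed between lamin C and lamin A for 19 collagens, all with a lower value under lamin C, when the difference between both effects was tested (0 were called the other way, where 9.9% of all genes were called lower, 8.84% higher and 18.7% either way). They were 6 fibrillar, 5 network, 4 basement membrane, 3 fibril-associated collagens and 1 other, Col7a1. The smallest adjusted p was that of Col16a1, whose lamin C effect minus its lamin A effect was -1.36 ± 0.15 on the log2 scale (adjusted p = 1.22e-05). Next came Col27a1 (-1.22 ± 0.14, adjusted p = 1.56e-05), Col14a1 (-1.46 ± 0.19), Col5a2 (-1.60 ± 0.22), Col8a1 (-1.63 ± 0.23), Col1a2 (-1.47 ± 0.21), Col8a2 (-2.48 ± 0.35) and Col3a1 (-1.69 ± 0.26). For Col4a3, Col4a4 and Col22a1 the difference had the other sign and was not called (0.20 ± 0.16, 0.24 ± 0.15 and 0.28 ± 0.36, adjusted p = 0.427, 0.313 and 0.66), which does not show the effects to be equal. Col4a5 and Col9a2 missed the threshold (-0.27 ± 0.10 and -0.82 ± 0.38) and passed without lamin A library 2 (-0.34, adjusted p = 0.0175 for Col4a5 and -1.10, adjusted p = 0.0284 for Col9a2). Col28a1 passed without that library too (-0.87, adjusted p = 0.0397). Col6a6, at 1.051 ± 0.40 (adjusted p = 0.0768), passed without LC shRNA library 2 (1.62, adjusted p = 0.00222), LA shRNA library 1 (1.27, adjusted p = 0.0363) or lamin A library 1 (1.32, adjusted p = 0.0313). Lmna counts differed in the same edgeR test, by 1.21 ± 0.12 (adjusted p = 3.6e-06), with the larger rise under lamin C. The kind of lamin and its RNA level therefore cannot be told apart here.

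The other genes of collagen biology were counted in the same way against the shRNA-labelled hearts, where 28.4% of all genes were called lower and 25.7% higher with lamin C, and 13.7% and 16.1% with lamin A. Of 22 modification and folding genes, 16 lower and 4 higher with lamin C and 7 and 2 with lamin A were called. Of 14 crosslinking genes there were 11 lower and 1 higher with lamin C and 6 and 0 with lamin A, and of 14 fibril regulators 13 lower and 1 higher with lamin C and 9 and 1 with lamin A. Receptors gave 7 lower and 3 higher with lamin C and 4 and 2 with lamin A, and degradation genes 9 lower and 2 higher with lamin C and 6 and 2 with lamin A. Non-collagen basement membrane genes gave 8 lower and 3 higher with lamin C and 5 and 1 with lamin A, and TGF-beta genes 12 lower and 1 higher with lamin C and 9 and 1 with lamin A. Lox stood at 23.0, 10.54 and 22.05 CPM with lamin C and 148, 129 and 172 with lamin A, and the difference of its lamin effects was -2.99 ± 0.28 (adjusted p = 3.6e-06). Timp1 differed by -3.17 ± 0.25, the prolyl hydroxylase P4ha3 by -3.26 ± 0.43 and Ltbp2 by -2.39 ± 0.35. In this test 16 modification and folding genes, 9 crosslinking genes, 11 fibril regulators, 5 receptors, 7 degradation genes, 3 non-collagen basement membrane genes and 10 TGF-beta genes had a lower lamin C effect. Called higher were 1 degradation gene, 1 non-collagen basement membrane gene, 1 TGF-beta gene and 0 of the other 4 lists, where 9.9% of all genes were called lower and 8.84% higher. Activated fibroblast markers summed to 719 to 1231 CPM with lamin C and 2536 to 3873 with lamin A, with 8 and 8 of 10 called lower than shRNA. Macrophage markers summed to 760.5 to 906 and 1437 to 1551 CPM, and cardiomyocyte markers to 88302 to 92634 and 65007 to 69609.8, with 11 and 10 of 12 called higher. Their part in the lamin results was not tested.

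Against the controls of the same batch, 21 of the 40 tested collagens were called higher with lamin C and 0 lower (median 0.59), where 8.87% of all genes were called higher, 6.18% lower and 15% either way. With lamin A 31 were called higher and 2 lower (median 1.34), where 24.1% of all genes were called higher, 22.1% lower and 46.2% either way. Of the 11 fibrillar members 8 were called higher with lamin C and 9 with lamin A, with medians of 1.10 and 2.55. The lamin A calls included Col5a3, not called between shRNA and control, and left out Col24a1, which was. Col3a1 was above control by 1.45 ± 0.19 with lamin C and 2.94 ± 0.20 with lamin A, Col1a1 by 1.32 ± 0.19 and 2.69 ± 0.19, Col1a2 by 1.16 ± 0.15 and 2.68 ± 0.16, and Col5a2 by 1.10 ± 0.16 and 2.55 ± 0.16. Col11a1 gave count ratios to control of 19.1 (95% counting interval 4.98 to 163) with lamin C and 21.99 (95% counting interval 7.27 to 109) with lamin A, and Col2a1 11.9 (95% counting interval 3.79 to 59.9) with lamin C. The fitted call of Col11a1 with lamin C was lost without LC control library 1 (3.51, adjusted p = 0.0571). Col8a1 was above control by 1.70 ± 0.17 and 3.31 ± 0.18, Col8a2 by 2.30 ± 0.44 and 4.65 ± 0.36, and Col12a1 by 2.28 ± 0.38 and 4.11 ± 0.33.

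Basement membrane collagens were nearest to control with lamin C, with 2 of 8 called higher, Col4a4 (0.40 ± 0.11) and Col15a1 (0.38 ± 0.12). The call of Col4a4 was lost without any 1 of LC control libraries 1 and 2 and lamin C libraries 1 and 3 (0.28 to 0.39, adjusted p = 0.0609 to 0.131), and that of Col15a1 without any 1 of LC control libraries 1 and 2 and lamin C libraries 1 and 3 (0.30 to 0.37, adjusted p = 0.0818 to 0.144). Leaving out LC control library 3 worked the other way: Col4a1 (0.30, adjusted p = 0.0248), Col18a1 (0.43, adjusted p = 0.00872), Col5a3 (0.61, adjusted p = 0.00473) and Col20a1 (0.92, adjusted p = 0.00837) were then called, and the total with lamin C went from 21 to 24. Col4a3 (0.31 ± 0.12) passed without lamin C library 2 (0.39, adjusted p = 0.0392). With lamin A 5 of 8 were called higher, Col4a1 (0.73 ± 0.11), Col4a2 (0.63 ± 0.09), Col4a5 (0.32 ± 0.07), Col15a1 (1.23 ± 0.12) and Col18a1 (0.87 ± 0.10). Col4a3, Col4a4 and Col4a6 were not (0.07 ± 0.12, 0.18 ± 0.11 and 0.22 ± 0.23), although Col4a4 passed without lamin A library 2 (0.29, adjusted p = 0.0444).

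Some other residual calls were lost when 1 library was left out. With lamin C those of Col6a3 (0.67 ± 0.19), Col27a1 (0.43 ± 0.11), Col9a2 (1.68 ± 0.43) and Col26a1 (1.28 ± 0.33) were lost: Col6a3 without any 1 of LC control libraries 1 and 2 and lamin C libraries 1 and 3 (0.56 to 0.63, adjusted p = 0.0697 to 0.0942), Col27a1 without any 1 of LC control library 2 and lamin C library 1 (0.37 to 0.39, adjusted p = 0.0538 to 0.0544), Col9a2 without any 1 of LC control library 1 and lamin C library 1 (1.34 to 1.41, adjusted p = 0.069 to 0.0728) and Col26a1 without LC control library 3 (1.11, adjusted p = 0.0514). With lamin A, Col6a6 was called below control (-0.81 ± 0.26), a call lost without any 1 of lamin A libraries 2 and 3 (-0.73 to -0.65, adjusted p = 0.0607 to 0.0863), and Col13a1 was called below control (-0.65 ± 0.25, at 0.722, 0.748 and 0.709 CPM), a call lost without any 1 of LA control libraries 1 and 2 and lamin A libraries 1, 2 and 3 (-0.68 to -0.53, adjusted p = 0.0701 to 0.151). Col5a3 was called above control with lamin A (0.60 ± 0.24, adjusted p = 0.0485) and lost without any 1 of LA control libraries 1, 2 and 3 and lamin A libraries 1, 2 and 3 (0.52 to 0.65, adjusted p = 0.0694 to 0.147). Calls above control with lamin A were lost for Col17a1 (1.67 ± 0.62) without any 1 of LA control libraries 1 and 3 and lamin A libraries 1 and 3 (1.36 to 1.71, adjusted p = 0.0557 to 0.135), for Col6a5 (1.41 ± 0.52) without any 1 of LA control libraries 1 and 3 and lamin A libraries 1 and 3 (1.016 to 1.33, adjusted p = 0.08 to 0.16), for Col26a1 (0.88 ± 0.29) without any 1 of LA control libraries 2 and 3 and lamin A library 1 (0.69 to 0.85, adjusted p = 0.0543 to 0.0936) and for Col28a1 (0.77 ± 0.23) without lamin A library 1 (0.54, adjusted p = 0.0705). Col17a1 passed the filter on low counts through the lamin A hearts, where it was highest (49 counts, against 12 in the LA controls). Its call above control with lamin A is therefore a description. Col11a2 (-0.33 ± 0.15) was called below control without LA control library 2 (-0.47, adjusted p = 0.0146), and Col24a1 (1.27 ± 0.52) above it without lamin A library 2 (1.43, adjusted p = 0.0482). Col23a1 stood at 2.36, 1.39 and 2.44 CPM with lamin C and 2.60, 2.33 and 1.198 with lamin A and was called against neither control nor shRNA.

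The difference from control was itself compared between the lamins, as the lamin C difference from the LC controls minus the lamin A difference from the LA controls. 19 collagens were called lower in that test and 0 higher, where 7.35% of all genes were called lower, 7.29% higher and 14.6% either way. Among them the difference was -1.49 ± 0.26 for Col3a1, -1.37 ± 0.26 for Col1a1, -1.52 ± 0.21 for Col1a2 and -1.61 ± 0.23 for Col8a1. The calls of Col8a2 (-2.35 ± 0.69), Col12a1 (-1.83 ± 0.56) and Col6a3 (-0.97 ± 0.26) were lost in some fits that left out 1 library. Col8a2 was lost without any 1 of LC control library 1 and LA control libraries 2 and 3 (-2.22 to -1.82, adjusted p = 0.0607 to 0.184). Col12a1 was lost without any 1 of LC control libraries 2 and 3, LA control libraries 2 and 3 and lamin A libraries 1 and 3 (-1.84 to -1.66, adjusted p = 0.0535 to 0.113). Col6a3 was lost without any 1 of LC control library 3, lamin C library 2 and LA control library 3 (-0.86 to -0.75, adjusted p = 0.0506 to 0.0527).

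The LC and LA controls, which carry these batch comparisons, were compared directly. Between them edgeR called 0 of the 40 tested collagens higher and 0 lower in the LA controls (median 0.22), where 0.106% of all genes were called. At an unadjusted p under 0.05, 8 members were higher and 0 lower, and DESeq2 called 2 higher, Col4a1 and Col4a2. Without LC control library 3, edgeR called 5 higher: Col4a1 (0.57, adjusted p = 0.00044), Col4a2 (0.45, adjusted p = 0.00155), Col18a1 (0.38, adjusted p = 0.0375), Col6a3 (0.69, adjusted p = 0.0411) and Col5a3 (1.63, adjusted p = 3.63e-07).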

How the data were processed

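Poly(A) RNA of the heart apex was made into directional (dUTP) libraries, per the labels' protocols. The deposited table holds, per gene, raw read counts and FPKM made by the authors. HISAT2 2.0.5, featureCounts 1.5.0-p3, StringTie 1.3.3b, DESeq2 1.20.0 and build mm10 are named, with no role, per the submitters' processing notes, and the sources used here do not say whether reads were counted by strand. The deposited FPKM equals the count per kilobase of the deposited gene length over a library size of 0.879 to 1.23 times the total count. The file also pairs gene IDs with symbols, coordinates and biotypes.

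Counts were fitted for all 18 libraries in 6 groups with edgeR 4.0.16 in R 4.3.3 (TMM scaling, filterByExpr with a minimum count of 10, quasi-likelihood F test, 12 residual degrees of freedom, common biological coefficient of variation 9.13%), and p-values were adjusted by the Benjamini-Hochberg method over the 17876 genes tested. CPM used TMM-scaled totals. A gene was called at an adjusted p under 0.05. The scripts were tested on simulated data. Ratios were tested by exact permutation (Python 3.11.15, scipy 1.17.1). Members, classes and lists were chosen with earlier results of these data known. Library values are given for the 4 members of each class with the highest mean FPKM, members moving against their class, up to 8 members called in an interaction contrast and up to 8 called against control with both lamins; of each other list up to 4 called genes may be named. Other members shown by library were chosen after their values were seen. Ccn2 was not matched in the table. The values of 1 listed gene are not reported here. Alternatives were DESeq2 1.42.0, other scalings, no filter, limma 3.58.1 on log2(FPKM + 1) and log2(FPKM + 0.1), removal of mitochondrially encoded genes, fits of the compared groups alone, a replicate block and leaving out each library. No 2 libraries of a group were identical, and each pair differed beyond sampling noise.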

Additional observations from a re-analysis of the deposited data

Results flagged for a closer look

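The lamin effects on 19 collagens differed between the batches when tested as the lamin C effect minus the lamin A effect, each against the shRNA-labelled hearts of its own batch (edgeR, adjusted p under 0.05). On the log2 scale the differences were -0.75 for Col15a1, -0.62 for Col18a1, -0.69 for Col4a1, -0.64 for Col4a2, -1.91 for Col12a1, -1.46 for Col14a1, -1.36 for Col16a1, -1.55 for Col1a1, -1.47 for Col1a2, -1.22 for Col27a1, -1.69 for Col3a1, -1.03 for Col5a1, -1.60 for Col5a2, -0.91 for Col6a1, -0.88 for Col6a2, -1.15 for Col6a3, -1.63 for Col8a1, -2.48 for Col8a2 and -0.80 for Col7a1. All of them were lower with lamin C.

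The difference from control was not the same under lamin C and lamin A for 19 collagens by the same kind of test. These differences were -0.85 for Col15a1, -0.56 for Col18a1, -0.61 for Col4a1, -0.53 for Col4a2, -0.40 for Col4a5, -1.83 for Col12a1, -1.27 for Col14a1, -1.18 for Col16a1, -1.37 for Col1a1, -1.52 for Col1a2, -1.25 for Col27a1, -1.49 for Col3a1, -0.95 for Col5a1, -1.45 for Col5a2, -0.82 for Col6a1, -0.85 for Col6a2, -0.97 for Col6a3, -1.61 for Col8a1 and -2.35 for Col8a2. Both tests use the lamin libraries of each batch, so their calls are not independent. Lamin and batch are separated only through the control and shRNA-labelled hearts of each batch. Lmna counts rose more with lamin C than with lamin A, so the kind of lamin and its RNA level cannot be told apart.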

How the results depend on the processing

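No collagen called in the report changed direction under any alternative run. With DESeq2, 1 collagen was called lower with lamin A than control, 1 higher in the lamin C minus lamin A effect and 2 higher in the LA than the LC controls. With library totals, 1 was called higher with lamin C than shRNA, 0 higher with lamin A than shRNA and 0 lower with lamin A than control. Without the filter, 2 were called lower in the LA shRNA comparison, 3 higher with lamin A than shRNA, 1 lower with lamin A than control, 1 higher in the lamin C minus lamin A effect and 11 higher between the controls. On log2(FPKM + 1) 1 was called higher with lamin C than shRNA and 1 lower with lamin A than control, and on log2(FPKM + 0.1) 1, 0 (higher with lamin A than shRNA) and 1. On log2(FPKM + 1) without a filter 0 were called higher with lamin A than shRNA and 10 of 44 higher with lamin C than control, against 14 of 27 tested on that scale with the filter. Removing mitochondrially encoded genes gave 2 lower calls in the LA shRNA comparison. Fits of the compared groups alone gave 3 higher calls with lamin A against shRNA and 1 lower against control.

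The share of collagens by counts in place of FPKM was 0.295%, 1.65% and 0.497% in LC control, shRNA and lamin C hearts and 0.366%, 1.89% and 1.40% in LA control, shRNA and lamin A hearts. Without mitochondrially encoded genes in the total it was 0.173%, 0.748%, 0.268%, 0.220%, 0.884% and 0.708%. These values come from the same libraries with another measure or total, so their shift from the FPKM shares follows from that choice. Mitochondrially encoded genes took more of the counts in controls than in shRNA-labelled hearts. Leaving them out of the total raised the control shares by the larger factor.

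Leaving out each library in turn gave 32 to 34 higher and 1 to 2 lower calls for shRNA in batch LC and 31 to 33 and 1 to 2 in batch LA. Lamin C against shRNA gave 28 to 30 lower and 1 to 2 higher, lamin A 15 to 17 and 0 to 1. Against control lamin C gave 16 to 24 higher, and lamin A 26 to 32 higher and 0 to 2 lower. The lamin C minus lamin A effect gave 19 to 22 lower and 0 to 1 higher, the residual difference 16 to 19 lower, and the controls 0 to 5 higher. The 5 arose without LC control library 3, which also gave 2 lower calls in the LC shRNA comparison. Lower calls in the LA shRNA comparison were 2 without LA control library 1 or 3 or LA shRNA library 3. Higher calls with lamin C against shRNA were 1 without LC shRNA library 1 or 3 or lamin C library 2 or 3. With lamin A against shRNA they were 0 without LA shRNA library 1 or 2 or lamin A library 1, and lower calls against control were 1 without LA control library 1 or lamin A library 1 and 0 without lamin A library 2 or 3. The log2 difference of the Col4a1 to Col4a2 ratio ranged from 0.0864 to 0.121 and that of Col1a1 to Col3a1 from 0.0213 to 0.148.

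Replicate numbers did not pair the libraries: over 18 same-numbered pairs the deviations from the group means correlated at -0.066 to 0.115, with 1 pair over 0.1. With the replicate number as a block, higher and lower calls were 33 and 1 (shRNA, batch LC), 33 and 1 (shRNA, batch LA), 2 and 31 (lamin C against shRNA), 0 and 18 (lamin A against shRNA), 21 and 0 (lamin C against control), 30 and 1 (lamin A against control), 0 and 19 in each test between the lamins, and 0 between controls. Depth limits the low members: 3 counts in a library equal 0.0622 to 0.108 CPM, and the LC controls held 2 counts of Col11a1 and 3 of Col2a1 over all 3 libraries.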
